A study of Mus musculus with 19 samples.

Results

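The miR-26 and miR-29 families were described in mouse sperm as 7 hairpin genes: Mir26a-1, Mir26a-2, Mir26b, Mir29a, Mir29b-1, Mir29b-2 and Mir29c. They are 7 of the 2198 miRNA hairpins of the GENCODE annotation that were used, and were chosen by name. A read was counted for a member when it was 20 to 24 nt long and matched the sense strand of its hairpin better than, or as well as, any other hairpin, and a read that matched several hairpins equally well was divided equally between them. The study asked how dicyclohexyl phthalate (DCHP), a plasticizer, changes the small RNAs of sperm. Sperm of the cauda epididymis were taken from C57BL/6J wild-type males given corn oil as vehicle (control) or DCHP at 10 mg/kg body weight per day by gavage for 4 weeks, starting at 8 weeks of age, and somatic cells were lysed before RNA was extracted. Small RNA was sequenced by traditional RNA-seq in 5 control and 5 DCHP libraries. It was also sequenced by PANDORA-seq, in which RNA is treated with T4 polynucleotide kinase and the demethylase AlkB before library construction so that modified fragments can be ligated and read through, in 4 control and 5 DCHP libraries. The study describes its PANDORA-seq samples as biological replicates of mice, but the labels number the libraries without saying what a number stands for, so that the p-values given here measure the spread between these libraries, which may in part be technical.

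A miRNA hairpin is cut by Drosha and Dicer into a duplex, of which 1 strand (the guide) is usually kept by an Argonaute protein and the other (the passenger) is lost. The guide finds its targets mainly through bases 2 to 8 from its 5′ end, the seed. The miR-26 guides come from the 5′ arm, and their hairpins lie in genes of the small C-terminal domain phosphatases, which are transcribed with them. The miR-29 guides come from the 3′ arm of hairpins in a pair of clusters, and are known for repressing collagens, other matrix genes and the de novo DNA methyltransferases. Mature sperm are transcriptionally quiet and take up part of their miRNAs from epididymal vesicles. In bulk RNA of this kind, fewer cells of a type and less RNA per cell cannot be told apart.

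The guide sequences are shown because they decide which members can be told apart in reads. They are the RefSeq mature sequences of GRCm38.p6, written 5′ to 3′ with the seed in capitals.
miR-26a-5p: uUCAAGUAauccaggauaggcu
miR-26b-5p: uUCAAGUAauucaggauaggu
miR-29a-3p: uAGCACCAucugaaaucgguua
miR-29b-3p: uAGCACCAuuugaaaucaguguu
miR-29c-3p: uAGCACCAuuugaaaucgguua
The miR-26 seed was shared by both of its guides and by no other of the 1679 mouse mature miRNA sequences, and the miR-29 seed by its 3 guides alone. With positions counted from 1 at the 5′ end, miR-26b-5p differed from miR-26a-5p by C11U and C21U. The guide miR-29c-3p differed from miR-29a-3p by C10U alone, and miR-29b-3p differed from miR-29a-3p by C10U, G18A, U21G and A22U. Among the guides, miR-29b-3p alone held the hexamer AGUGUU, a motif described for nuclear import of this miRNA. It stood in 12 of the 1679 mature sequences (0.715%). In miR-29b-3p the hexamer is the 3′ end of the guide. Of the 424 traditional miR-29b-3p reads counted, 0.0% reached the annotated 3′ base, so none held the whole hexamer there. In PANDORA-seq the guide had 0 reads.

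All positions are on GRCm38. Mir26a-1 (chr9:119031796-119031885, plus strand) lies in an intron of Ctdspl and Mir26b (chr1:74394310-74394394, plus strand) in an intron of Ctdsp1. Mir26a-2 (chr10:126995530-126995613, plus strand) overlaps an annotated exon of Ctdsp2. Mir29a (chr6:31062660-31062747, minus strand) lies in no other annotated gene, 275 bases from Mir29b-1 (chr6:31063023-31063093, minus strand), which overlaps an exon of the lincRNA Gm27019. Mir29b-2 (chr1:195037040-195037120, plus strand) and Mir29c (chr1:195037547-195037634, plus strand) lie 426 bases apart in exons of the noncoding transcript A330023F24Rik, with Cd46 on the other strand.

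The libraries held 21588335 to 56506344 reads. Levels are given as reads per 1000000 miRNA reads (rpm), where miRNA reads are those of 20 to 24 nt on the 454 hairpins that had at least 50% of their reads at this length. These were 959446 to 8146852 reads in traditional libraries and 5816 to 46900 in PANDORA-seq libraries, so that 3 reads corresponded to 0.368 to 3.13 rpm and to 64.0 to 516 rpm. Reads were counted without molecular identifiers, and such limits cover counting error only. Libraries differed widely in Mir122, the miRNA that dominates in liver, which took 1.38% to 43.2% of miRNA reads in the traditional libraries, with 24.1% and 43.2% in traditional controls 1 and 2. Library 2 was high in each of the 4 groups, with 21.6% in traditional DCHP, 27.5% in PANDORA-seq control and 25.6% in PANDORA-seq DCHP libraries. In the traditional libraries all 17 germ-line hairpins checked had reads, together 0.940% to 5.73% of miRNA reads, and the 5 hairpins checked for epididymal epithelium summed to 0.602% to 4.75% and the 7 for muscle to 2.89% to 8.38%. In PANDORA-seq 4 germ-line hairpins (Mir449b, Mir449c, Mir742 and Mir883b), the 3 miR-133 hairpins of the muscle list and Mir144 and Mir142b of the blood list were at 0 in every library.

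The reads of the guides are shown next because their ends differed between the families. They are taken from the 3 most frequent reads of 20 to 24 nt of each guide in the traditional libraries, chosen for the ends they show, with bases 2 to 8 of each read in capitals.
miR-26a-5p, 21 nt: tTCAAGTAatccaggataggc
miR-26a-5p, 22 nt: tTCAAGTAatccaggataggct
miR-26b-5p, 21 nt: tTCAAGTAattcaggataggt
miR-26b-5p, 20 nt: tTCAAGTAattcaggatagg
miR-29a-3p, 20 nt: tAGCACCAtctgaaatcggt
miR-29a-3p, early start, 21 nt: cTAGCACCatctgaaatcggt
miR-29b-3p, 20 nt: tAGCACCAtttgaaatcagt
miR-29c-3p, 20 nt: tAGCACCAtttgaaatcggt
For miR-26a-5p, the 21-nt read had 226588 counts, 76.5% of the arm, and 79.4% in PANDORA-seq. It ends 1 base before the annotated 3′ end, and the full 22-nt guide made up 4.16%. For miR-26b-5p the 21-nt read, which ends at the annotated base, made up 49.7% of the arm and the 20-nt read 17.2%. The main miR-29a-3p read made up 50.1% of its arm and ends 2 bases before the annotated end. A read 1 base longer, not shown, was second at 14.7%, and the early-start read came next at 12.7%.

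A second start was frequent in miR-29a-3p. Reads that began 1 base early, with a C ahead of the annotated first base and bases 2 to 8 of TAGCACC in place of the annotated seed, were 14.3%, 13.4%, 35.9%, 35.9% and 30.1% of the arm in traditional controls 1 to 5. They were 36.6%, 30.5%, 22.7%, 26.02% and 41.8% in traditional DCHP libraries 1 to 5. The 2 lowest shares were those of controls 1 and 2, and the groups overlapped. The annotated start was used by 74.1% ± 11.3 (SD, n = 5) of miR-29a-3p reads in control and 68.5% ± 7.76 (SD, n = 5) in DCHP libraries (two-sided exact permutation test, p = 0.389, adjusted p = 0.992 over 150 arms, of which 0.0% were called). In miR-26a-5p the annotated start was used by 98.4% to 99.0% of reads in the traditional libraries, and in miR-26b-5p by at least 99.5%. The early start of miR-29a-3p was also seen in PANDORA-seq, with 38.5% of 26 reads in DCHP library 5, its only PANDORA-seq library with 20 or more reads.

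The 3′ ends differed between the guides. Between 87.1% and 93.4% of miR-26a-5p reads in a traditional library ended 1 base short, 53.8% to 61.8% of miR-26b-5p reads ended at the annotated base, and 67.3% to 79.3% of miR-29a-3p reads ended 2 bases short. A last base that did not match the genome was carried by 2.53% to 4.46% of miR-26a-5p reads. Of these bases 54.1% were T and 39.5% A. The passenger arms had few reads. Over the 10 traditional libraries there were 8 reads for miR-26a-1-3p, 406 for miR-26a-2-3p, 132 for miR-26b-3p, 3 for miR-29a-5p, 49 for miR-29b-1-5p, 41 for miR-29b-2-5p and 112 for miR-29c-5p. The rare miR-29 guides were not far above these, with 424 reads of miR-29b-3p and 806 of miR-29c-3p. In traditional controls 3 and 4 and DCHP library 4, miR-29c-5p had 5, 6 and 13 reads and miR-29c-3p 3.5, 6 and 9, so that the passenger equalled or exceeded the guide there. So did miR-29b-1-5p in control 3, with 11 reads against 5 of miR-29b-3p, and miR-29b-2-5p in control 5, with 5 against 3.

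**Figure D1:**
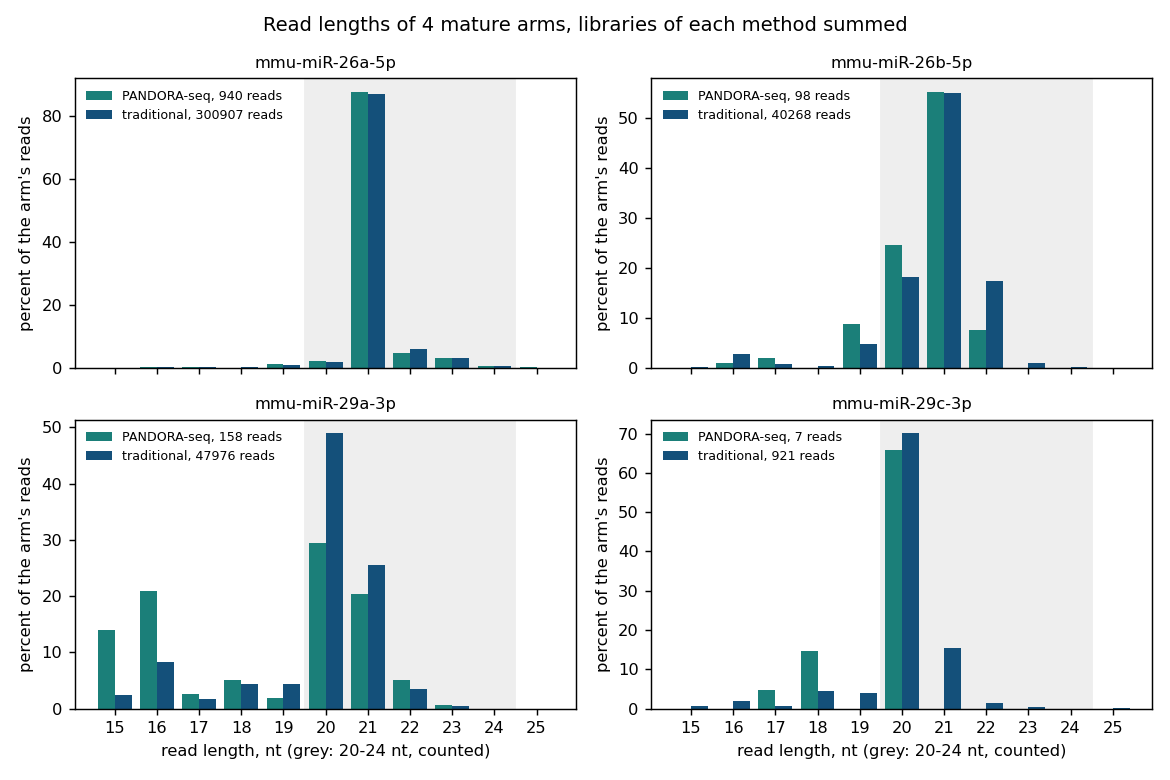
Read length in nt (x axis) against the percent of the arm's reads (y axis) for miR-26a-5p, miR-26b-5p, miR-29a-3p and miR-29c-3p, with the libraries of each method summed (teal, PANDORA-seq; blue, traditional) and the 20 to 24 nt window in grey. The miR-26a-5p reads stand almost wholly at 21 nt in both methods, while miR-29a-3p has further reads at 15 and 16 nt. These are a larger share of the summed reads in PANDORA-seq.

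The length window removed few miR-26 reads and many Mir29a reads. In the traditional libraries 98.5% of Mir26a-1 reads and 91.5% of Mir26b reads were 20 to 24 nt long, against 78.6% of Mir29a reads. The Mir29a share rests on control 2, which held most of its reads: the median over the 10 libraries was 59.9%. Reads of 15 to 19 nt made up 24.5%, 13.2%, 49.3%, 50.4% and 37.2% of Mir29a reads in traditional controls 1 to 5, and 46.3%, 38.7%, 25.4%, 41.6% and 41.7% in DCHP libraries 1 to 5. As with the early start, control 2 was the lowest and the groups overlapped. In PANDORA-seq 55.6% of Mir29a reads fell in the window (median over libraries 50.0%). Over summed reads, 16-nt reads were 21.0% of miR-29a-3p reads, against 8.31% in traditional libraries, where control 2 weighs most. By library, the 15 to 19 nt share of Mir29a had medians of 55.0% in PANDORA-seq control and 50.0% in PANDORA-seq DCHP libraries. The traditional medians were 37.2% in control and 41.6% in DCHP libraries, and the ranges of the methods overlapped. Whether the short reads come from the miRNA or from another RNA was not tested.

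Which gene a read came from was resolved for some members only. The 2 miR-26a hairpins share their guide, and of 148123 traditional reads given to Mir26a-1 only 8 matched it alone. Its values and those of Mir26a-2 are therefore one measurement divided in 2, and the log2 fold changes of the pair differed by at most 0.04 with the settings used for the main results and by at most 0.09 under any alternative. Mir29b-1 and Mir29b-2 also share a guide, with 18.8% and 16.2% of their reads matching 1 hairpin alone. Reads of Mir26b (98.2%), Mir29a (99.7%) and Mir29c (93.9%) were mostly their own.

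Mir29c has a limit of another kind. Its main read is the main miR-29a-3p read with C10T, so that a misread base in Mir29a gives a Mir29c read. The C10T read had 490 counts, 2.60% of the 18873 counts of the miR-29a-3p read. Of the 57 single-base substitutions inside that read it was the most frequent, the next being A5G at 1.40%. In single traditional libraries it ranged from 0.345% to 6.59% and was the most frequent substitution in 6 of 10. The main miR-29b-3p read differs from that of miR-29a-3p by G18A as well as C10T. The second most frequent miR-29b-3p read, with 73.3 counts and 17.3% of the arm, differs from it by G18A alone, so that the limit touches miR-29b too.

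Mir26a-1 was the most abundant member with Mir26a-2. It stood at 6003, 8402, 3071, 3439 and 3623 rpm in traditional controls 1 to 5 and at 4158, 4150, 4997, 5888 and 4267 rpm in DCHP libraries 1 to 5. By group these were 4908 ± 2269 (SD, n = 5) and 4692 ± 755 (SD, n = 5) rpm. Controls 1 and 2 held the 2 highest values and the other controls the 3 lowest, so that the control values enclosed those of the DCHP libraries. In PANDORA-seq Mir26a-1 stood at 3181, 6680, 1413 and 963 rpm in controls 1 to 4 and at 1560, 3289, 3378, 4273 and 2967 rpm in DCHP libraries 1 to 5, again with overlapping groups and control 2 highest.

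Mir26b, which carries the same seed, stood at 1707, 2742, 507, 454 and 575 rpm in traditional controls 1 to 5. In the DCHP libraries it was at 692, 639, 1121, 879 and 791 rpm. The control values lay on both sides of the DCHP values, with none between the lowest and the highest of them. In PANDORA-seq it rested on few reads: 172, 1754, 385 and 198 rpm in controls 1 to 4 came from 1, 21, 9 and 4 reads, and DCHP libraries 1 to 5 gave 0, 651, 375, 721 and 547 rpm.

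Mir29a, the main source of the miR-29 seed, stood at 1679, 3317, 248, 207 and 555 rpm in traditional controls 1 to 5. The DCHP libraries gave 330, 560, 938, 584 and 560 rpm. Its 1201 ± 1324 (SD, n = 5) rpm in control and 594 ± 218 (SD, n = 5) rpm in DCHP libraries differed by less than the spread among controls, of which 2 were above and 2 below all DCHP libraries. In PANDORA-seq, controls 1 to 4 were at 172, 1378, 171 and 198 rpm from 1, 16.5, 4 and 4 reads, and DCHP libraries 1 to 5 at 400, 795, 938, 618 and 554 rpm from 5, 11, 10, 10 and 26 reads. Here all 5 DCHP libraries lay above 3 of the 4 controls, and control 2 above all of them.

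Mir29c and the miR-29b pair were rare. Mir29c stood at 58.4, 83.7, 4.24, 8.92 and 18.1 rpm in traditional controls 1 to 5 and at 8.34, 8.34, 20.7, 8.09 and 6.64 rpm in DCHP libraries 1 to 5. Controls 1 and 2 were above every DCHP library, and the groups overlapped. Mir29b-1 was at 6.85, 17.1, 3.95, 1.36 and 3.02 rpm in the controls and at 7.82, 2.08, 11.9, 8.94 and 8.56 rpm in the DCHP libraries. The values for Mir29b-2 were 10.3, 19.7, 1.02, 1.36 and 5.60 rpm in the controls and 5.21, 2.08, 8.32, 6.003 and 6.52 rpm in the DCHP libraries. Both miR-29b hairpins had their highest value in control 2, and their groups overlapped. In PANDORA-seq Mir29b-2 had 0 reads in every library, Mir29b-1 had 1 read in DCHP library 4, and Mir29c had at most 1.5 reads, so that none of them was measurable at this depth.

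The order of the members held within libraries. In all 10 traditional libraries Mir26a-1 was above Mir26b, by a median of 6.03-fold (range 3.06 to 7.57), and Mir29a above Mir29c, by a median of 42.5-fold (range 23.2 to 84.4). The miR-26a-5p reads are divided between 2 hairpins, so the ratio of Mir26a-1 to Mir26b is lower than that of the guides. In traditional control 1, miR-26a-5p stood at 12005 rpm and miR-26b-5p at 1695 rpm. Mir26b was above Mir29a in 9 of 10, by a median of 1.30-fold (range 0.827 to 2.20). The places of Mir29c and the miR-29b hairpins depend on how the shared miR-29b-3p reads are divided. By hairpin, Mir29c exceeded Mir29b-2 in 10 and Mir29b-1 in 8 of 10, but the undivided miR-29b-3p reads outnumbered those of miR-29c-3p in 4 of 10 (control 3 and DCHP libraries 1, 4 and 5). Among the 454 miRNA hairpins, by mean level in traditional controls, Mir26a-2 and Mir26a-1 took places 24 and 25, Mir29a 60, Mir26b 61, Mir29c 157, Mir29b-2 228 and Mir29b-1 235. In traditional DCHP libraries Mir26b was at place 67, Mir29a at 70 and Mir29c at 212. In PANDORA-seq Mir26a-1 was above Mir26b and Mir29a above Mir29c in 9 of 9 libraries, whereas Mir26b and Mir29a were not ordered (3 libraries one way, 4 the other). For scale, the 12 let-7 hairpins together took 9.06% to 30.5% of miRNA reads over the 19 libraries and the 6 miR-30 hairpins 1.15% to 2.86%.

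**Figure D2:**
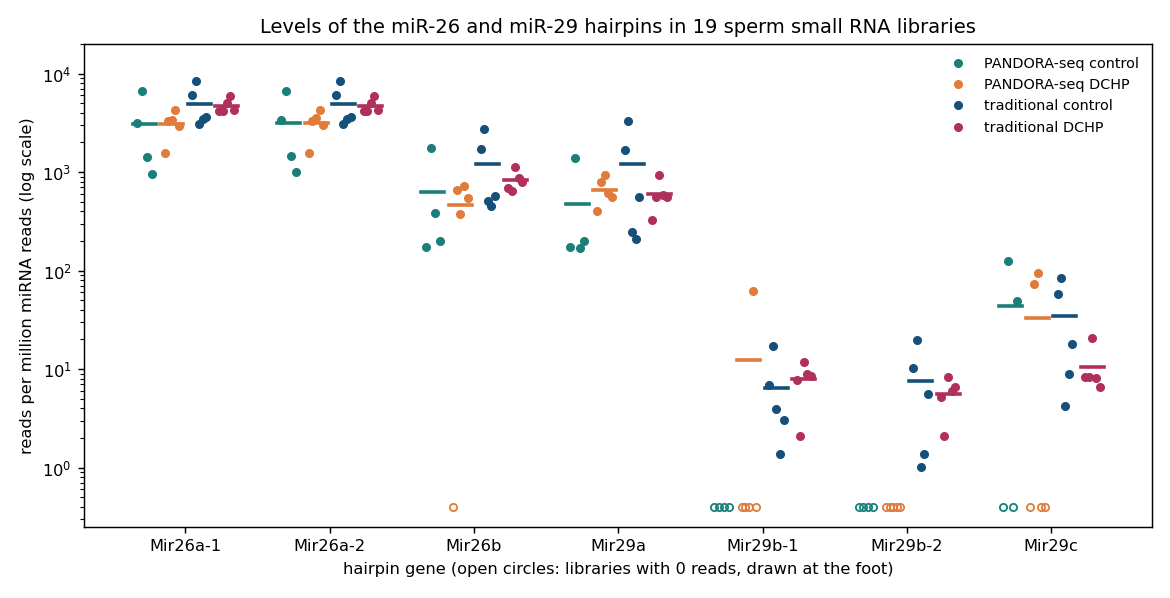
Level of each hairpin gene in reads per 1000000 miRNA reads on a log axis, with 1 point per library, coloured by method and exposure, and libraries with 0 reads as open circles at the foot. Mir26a-1 lies between 963 and 8402 rpm, Mir29c and the miR-29b pair lie at 83.7 rpm or less in the traditional libraries, and the exposure groups overlap for every member.

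Exposure was tested in the traditional libraries with the quasi-likelihood test of edgeR over the 418 hairpins with enough reads, with miRNA reads as library size. A call needed a p below 0.1 after Benjamini-Hochberg adjustment and a level that differed by more than 2-fold. None of the 7 members was called, and none of the 418 hairpins (0.0%), although 29 had an unadjusted p below 0.05. DESeq2 called 0 as well, with 33 at that level. The log2 fold changes of DCHP over control were -0.06 (SE 0.33) for Mir26a-1, -0.54 (SE 0.46) for Mir26b and -1.02 (SE 0.61) for Mir29a. They were 0.20 (SE 0.61) for Mir29b-1, -0.45 (SE 0.68) for Mir29b-2 and -1.74 (SE 0.67) for Mir29c. Mir29c had the lowest p of the members in edgeR, 0.0188 before and 0.693 after adjustment. The median log2 fold change of all hairpins tested was 0.17.

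These values rested on traditional controls 1 and 2. Without both of them, a comparison added after the data had been seen, the log2 fold changes were 0.47 (SE 0.24) for Mir26a-1, 0.69 (SE 0.26) for Mir26b, 0.82 (SE 0.39) for Mir29a, 1.35 (SE 0.56) for Mir29b-1, 1.33 (SE 0.64) for Mir29b-2 and 0.10 (SE 0.54) for Mir29c. Controls 1 and 2 held the 2 highest control values of every member, so leaving them out could only raise these fold changes. Traditional DCHP libraries 2 and 3, with 21.6% and 12.8% Mir122, were kept. Of the 7 members, 6 then had a sign opposite to that with all libraries. None of 390 hairpins was called by edgeR, with 48 at an unadjusted p below 0.05. The adjusted p was 0.396 for the miR-26a pair, Mir26b and Mir29a and 0.926 for Mir29c. With all libraries in, Mir29b-1 and Mir29b-2 each reached 10 reads in 2 of 5 controls and 4 of 5 DCHP libraries. The DCHP libraries alone met the filter for the miR-29b pair, whose fold changes without controls 1 and 2 are given as values only. Without control 2 alone, the values were 0.22 for Mir26a-1, 0.02 for Mir26b, -0.18 for Mir29a, 0.998 for Mir29b-1, 0.43 for Mir29b-2 and -1.07 for Mir29c.

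**Figure D3:**
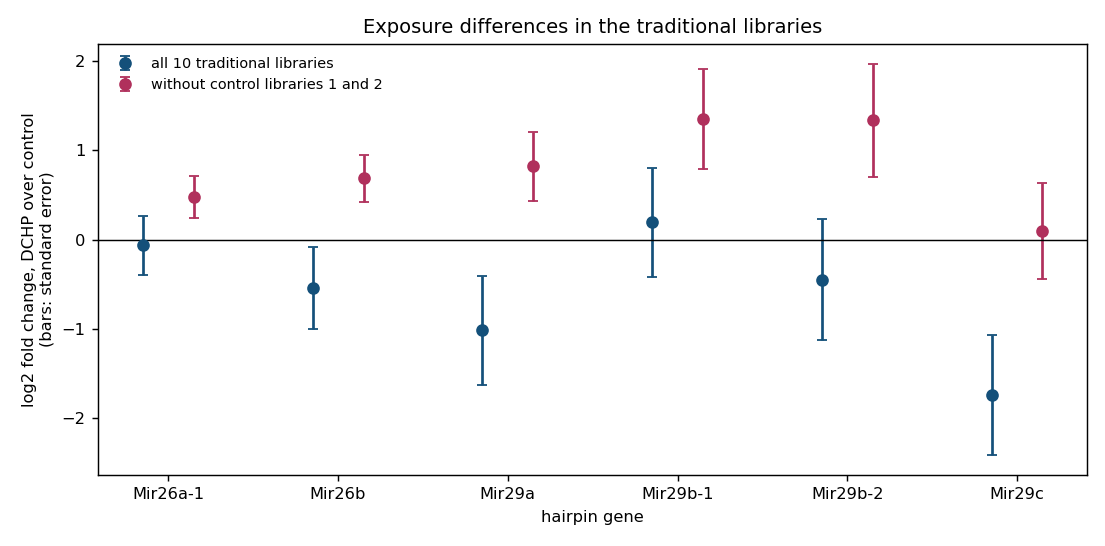
Log2 fold change of DCHP over control in the traditional libraries (y axis) for each hairpin gene (x axis), with standard error bars, for all 10 libraries (blue) and without control libraries 1 and 2 (red). Leaving out the 2 controls moves every member upwards, as for Mir29a from -1.02 to 0.82.

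Members of both families moved with other miRNAs across the 10 traditional libraries. Over 274 hairpins, the levels most like Mir26a-1 were those of Mir199a-1 and Mir199a-2 (Pearson r = 0.97 for both) and Mir21a (0.94). For Mir26b they were Mir199a-1, Mir199a-2 and Mir27b (0.99 for each). Mir29a was most like Mir146, Mir24-1 and Mir24-2 (0.98 for each), and Mir29c most like Mir101b (0.96), Mir126a (0.93) and Mir192 (0.93). Mir199a-1 and Mir199a-2 had nearly the same values (693 and 694 rpm in traditional control 2) and are not separate matches. Mir24-1 and Mir24-2 were also close (207 and 262 rpm there). All points share the library total as denominator, and the correlations are descriptions over 10 libraries, of which 2 lie far from the others.

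Mir122 is given beside the members because its share was highest in the same controls. Pearson's r with its level was 0.69 for Mir26a-1, 0.74 for Mir26b, 0.83 for Mir29a and 0.78 for Mir29c, and Spearman's rho 0.53, 0.56, 0.68 and 0.70. Without controls 1 and 2, r was 0.30, 0.34, 0.60 and 0.46, so that the relation rested largely on those libraries. Traditional DCHP library 2, with 21.6% Mir122, had the lowest Mir26a-1 and Mir26b of its group, at 4150 and 639 rpm. Its Mir29a (560 rpm) and Mir29c (8.34 rpm) were not the lowest. Traditional DCHP library 3, next in Mir122 at 12.8%, had the highest Mir26b (1121 rpm), Mir29a (938 rpm) and Mir29c (20.7 rpm) of that group. Only library 4 of the group had more Mir26a-1. The 6 blood-cell hairpins checked also summed highest in traditional controls 1 and 2, at 367 and 734 rpm, with a median of 146 rpm in traditional controls and 114 to 276 rpm in traditional DCHP libraries. Every one of them had reads in the traditional libraries. The 5 epididymal hairpins summed to 14986 ± 6084 (SD, n = 5) rpm in traditional control and 30124 ± 14421 (SD, n = 5) rpm in traditional DCHP libraries, with overlapping groups and the lowest sum, 6024 rpm, in control 2. In PANDORA-seq they summed to 10897 ± 1292 (SD, n = 4) and 23847 ± 14349 (SD, n = 5) rpm, also with overlap. The muscle list went from 51158 ± 21709 to 58512 ± 16271 (SD, n = 5 each) rpm in traditional and from 17941 ± 7160 (SD, n = 4) to 41033 ± 29573 (SD, n = 5) rpm in PANDORA-seq libraries. Members of the muscle list did not all move alike. In the PANDORA-seq exposure fit the log2 fold change was 1.26 (SE 0.52) for Mir143 and -0.10 (SE 0.64) for Mir145a. The germ-line list went from 30352 ± 13298 to 39536 ± 12511 (SD, n = 5 each) rpm and from 21462 ± 4742 (SD, n = 4) to 27584 ± 7565 (SD, n = 5) rpm, and the groups of both lists overlapped in both methods. The part of these lists in the differences of the members was not tested.

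**Figure D4:**
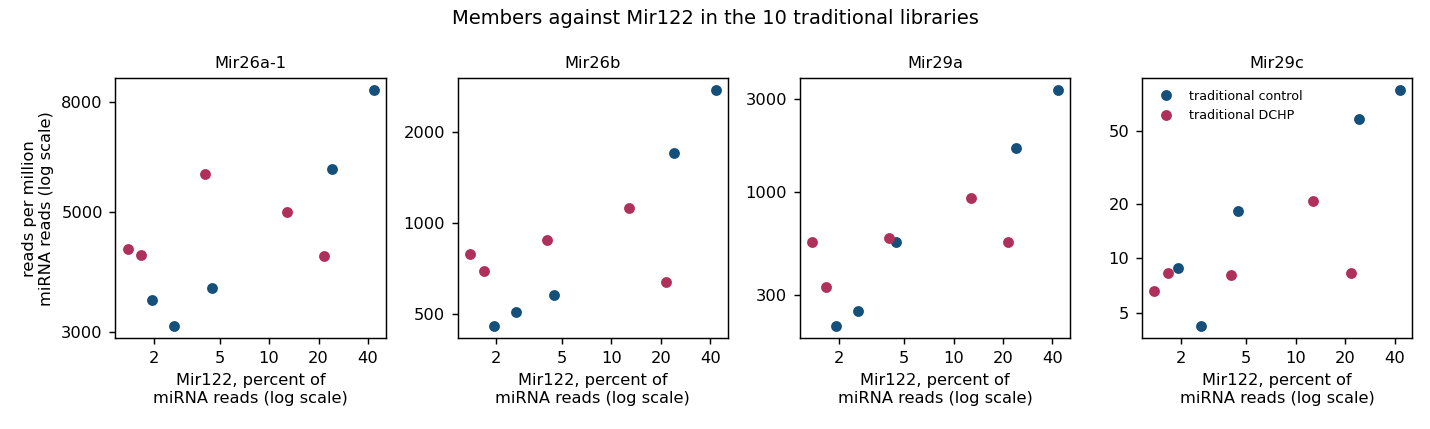
Level of Mir26a-1, Mir26b, Mir29a and Mir29c in reads per 1000000 miRNA reads (y axis, log scale) against the percent of miRNA reads that were Mir122 (x axis, log scale), with 1 point per traditional library, coloured by exposure. Controls 1 and 2, at 24.1% and 43.2% Mir122, have the highest level of each of the 4 members.

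In PANDORA-seq 3 of the 7 members had enough reads for the exposure test, and 0 of 180 hairpins were called by edgeR (0.0%), with 9 at an unadjusted p below 0.05. Without the filter on low counts 0.116% of 863 hairpins were called, and no member. DESeq2 also called 0, with 10 at that level. The log2 fold change was 0.05 (SE 0.52) for Mir26a-1 and 0.49 (SE 0.63) for Mir29a (edgeR, adjusted p = 0.988). Mir29a reached 10 reads in 1 of 4 control and 4 of 5 DCHP libraries. The DCHP libraries alone met the filter, so its adjusted p is not read. In PANDORA-seq control 2, Mir122 took 27.5% of miRNA reads, against 2.48% to 7.03% in the other controls. DCHP library 2 (25.6% Mir122, Mir29a at 795 rpm) was kept when control 2 was left out. The log2 fold changes were then 0.83 (SE 0.58) for Mir26a-1 and 1.81 (SE 0.66) for Mir29a. Control 2 held the highest control value of both members, so leaving it out could only raise these fold changes. Mir29a then had 1, 4 and 4 reads in the controls and passed the filter through the DCHP libraries alone. Its adjusted p of 0.341 (edgeR) is therefore not read. The difference between methods in the effect of exposure was 1.52 (SE 0.97) on the log2 scale for Mir29a (edgeR interaction term, adjusted p = 0.9998). Its PANDORA-seq controls held 1 to 16.5 reads, so this adjusted p is not read either. Of the 426 hairpins tested for the interaction 0.0% were called, with 11 at an unadjusted p below 0.05 by edgeR and 21 by DESeq2, which also called 0. Without traditional controls 1 and 2 the Mir29a interaction was -0.31, and without PANDORA-seq control 2 it was 2.86 (SE 1.02). The libraries left out were the highest controls of their method, so the direction of each shift was fixed by the choice.

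The methods differed most in how many reads of the members they yielded. In reads per 1000000 total reads, Mir26a-1 had 0.345 to 3.16 in PANDORA-seq and 136 to 1314 in traditional libraries. Mir26b had 0 to 0.794 and 17.96 to 429, and Mir29a 0.0393 to 0.624 and 8.18 to 519. These ranges lay apart, but so did those of miRNA reads as a whole. All miRNA reads were 0.0229% to 0.106% of reads in PANDORA-seq and 3.96% to 15.6% in traditional libraries. The gap is therefore not particular to the members. Relative to all reads, edgeR gave a log2 fold change of PANDORA-seq over traditional of -8.43 (SE 1.19, adjusted p = 5.69e-05) for Mir26a-1 in control. It was called with Mir26a-2, as were 75.8% of 343 hairpins. In DCHP libraries edgeR gave -7.48 (SE 0.70, adjusted p = 8.02e-07), and called the miR-26a pair and Mir29a beside 78.7% of 376 hairpins. The fall was shared by the hairpins at large, whose median was -6.14 in control and -6.06 in DCHP libraries.

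Mir29c in control, and Mir29b-1, Mir29b-2 and Mir29c in DCHP libraries, had at most 2.5 PANDORA-seq reads over a group and entered the tests through the traditional libraries alone, so their calls are not read here. Mir26b reached 10 reads in 1 of 4 PANDORA-seq control and 2 of 5 PANDORA-seq DCHP libraries, and Mir29a in 1 of 4 PANDORA-seq control libraries. They too passed the filter through the traditional libraries, and their fold changes there are given as values only. Calls are read for the miR-26a pair in both exposures and for Mir29a in DCHP libraries.

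Relative to miRNA reads, the library size used for the levels, neither the miR-26a pair nor Mir29a in DCHP libraries was called. In control libraries this stood against 49.9% of 343 hairpins, 154 higher and 17 lower in PANDORA-seq. Of the 218 tested hairpins among the 454 miRNA hairpins 26.1% were called, and their median log2 fold change was -0.10. The members had log2 fold changes of -0.71 (SE 0.56) for Mir26a-1, -0.93 (SE 0.74) for Mir26b and -1.38 (SE 0.89) for Mir29a. In DCHP libraries the background was 40.2% of 376 hairpins, 147 higher and 4 lower, and 11.6% of the 233 miRNA hairpins. Here the values were -0.59 (SE 0.35) for Mir26a-1, -0.78 (SE 0.48) for Mir26b and 0.13 (SE 0.41) for Mir29a.

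The control comparison turned on single libraries. Without PANDORA-seq control 2, edgeR called the miR-26a pair lower in PANDORA-seq, beside 55.0% of 342 hairpins, with log2 fold changes of -1.49 (adjusted p = 0.0393) for Mir26a-1 and -1.40 (adjusted p = 0.0553) for Mir26a-2. Mir26b was then at -2.15 and Mir29a at -2.72, from at most 9 and 4 reads in a PANDORA-seq control. Control 2 held the highest PANDORA-seq control value of each of these members, so leaving it out could only lower the fold changes. Without traditional controls 1 and 2, the log2 fold changes were -0.19 for Mir26a-1, 0.29 for Mir26b and 0.43 for Mir29a. Leaving out these controls, the highest of their group, could only raise the values. With the library number as a block edgeR called Mir26a-1 (-1.03, adjusted p = 0.0327) but not Mir26a-2, beside 53.4% of hairpins, and without the filter on low counts it called neither, beside 44.0%. In DCHP libraries these alternatives called neither the pair nor Mir29a, beside 41.0% and 38.6% of hairpins.

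Other library sizes made calls as well. With 20 to 24 nt reads on all hairpins as the size, edgeR called the miR-26a pair in control (beside 77.3% of hairpins), and the pair and Mir29a in DCHP libraries (76.3%). The same were called with trimmed means (TMM, 96.5% and 90.2%) and by DESeq2 with its own size factors (83.7% and 80.9%). With each of these sizes and with all reads, the values of Mir26a-1, Mir26b and Mir29a were below 0, from -1.72 to -9.34, and the split over all hairpins turned with the size. Relative to all reads, 9 hairpins were higher and 251 lower in control and 11 and 285 in DCHP libraries. With TMM these were 107 and 224, and 126 and 213.

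**Figure D5:**
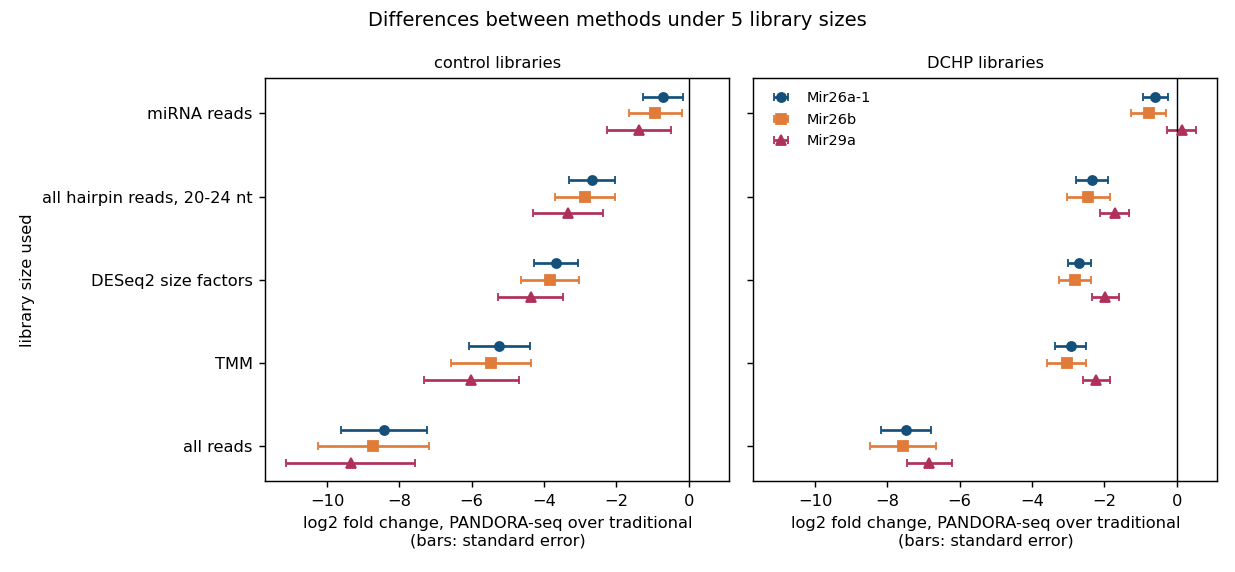
Log2 fold change of PANDORA-seq over traditional libraries (x axis, with standard error bars) for Mir26a-1, Mir26b and Mir29a under 5 library sizes (y axis), in control (left) and DCHP libraries (right). The values move from 0.13 to -1.38 with miRNA reads to -6.84 to -9.34 with all reads, and Mir29a in DCHP libraries is the only value above 0.

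The ends of reads could be compared between methods for miR-26a-5p alone, which had 20 or more reads in every library. The annotated start was used by 99.5% ± 0.717 (SD, n = 4) of its reads in PANDORA-seq control and 98.6% ± 0.166 (SD, n = 5) in traditional control libraries (two-sided exact permutation test, p = 0.0397, adjusted p = 0.0860). It was called with 12 of 26 arms (46.2%). PANDORA-seq controls 1 to 4 had only 37, 160, 66 and 39 miR-26a-5p reads, and 99.3% of these 302 reads used the annotated start. The call therefore rests on very few reads with another start. In DCHP libraries the shares were 98.3% ± 1.02 (SD, n = 5) and 98.7% ± 0.202 (SD, n = 5), with the difference in the other direction (exact permutation test, adjusted p = 0.738, 22.6% of 31 arms called). The control call was lost when PANDORA-seq control 1, 2 or 4 or any 1 of the traditional controls was left out, and with a minimum of 50 reads in every library it could no longer be tested. Without PANDORA-seq DCHP library 3 a DCHP call was added, which is not read because it rests on the library left out. None of the other tests of read ends called a member arm. Between methods the 3′ end was called in 26.9% of 26 arms in control and 16.1% of 31 in DCHP libraries, without miR-26a-5p. The mismatched last base was called in 0.0% of arms in each comparison. Between exposures in traditional libraries the share of the 5′ arm was called in 0.0% of 128 hairpins. The lowest p among the members there was that of Mir26a-1 (exact permutation test, p = 0.0476, adjusted p = 1, 99.988% in DCHP and 99.999% in control libraries). It rested on the 8 passenger reads named above.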

How the data were processed

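Small RNA of 15 to 50 nt was cut from a gel and sequenced in 19 libraries. For each library the authors deposited the counts of reads of every distinct cleaned sequence of 15 to 45 nt, without normalization or annotation. Trimming and quality settings are not given in the sources used here. Whether a library was control or DCHP was read from its name, because the treatment field names DCHP for all 19.

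Reads were matched to 2198 GENCODE vM21 hairpins (4 overlapping a tRNA locus were left out) on their sense strand, allowing 1 mismatch and keeping the best match. Hairpins with 10 or more reads in at least 4 libraries entered edgeR 4.0.16 (R 4.3.3, quasi-likelihood test, rounded counts), within each method, within each exposure and for their interaction, with adjustment by Benjamini-Hochberg over all hairpins tested. DESeq2 1.42.0, other library sizes and leaving out each library were alternatives. Read ends were compared with two-sided exact permutation tests (computed with numpy 2.4.6) for arms with 20 or more reads in every library compared. They were called at an adjusted p below 0.1. An arm's reads overlapped it by 15 nt or more. The tests were tested on simulated data. All 7 members were named, and their tests, the marker lists and the alternatives were chosen with earlier results of these data known.

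Same-numbered DCHP libraries of the 2 methods deviated together (r from 0.334 to 0.608 in 5 of 5 pairs). In control, 3 of 4 such pairs had r over 0.1 (range -0.0891 to 0.714), so pairing there was not settled. Between exposures, 2 of 4 pairs in PANDORA-seq and 1 of 5 in traditional libraries had r over 0.1. The main tests ignored pairing, also in DCHP libraries, and the edgeR block on library number was an alternative. The permutation tests were unpaired throughout. No 2 libraries of a group were alike within counting error (smallest chi-square per degree of freedom 12.6).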

Additional observations from a re-analysis of the deposited data

Results flagged for a closer look

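Of 46 groups of member values examined, 4 had 1 library far from the others, where chance gives about 1 in 20 groups (2.3 here). In PANDORA-seq control, library 2 had 1754 rpm of Mir26b from 21 reads, with the next library at 385 rpm, and 1378 rpm of Mir29a from 16.5 reads, with the next at 198 rpm. Mir122 took 27.5% of miRNA reads in that library. In traditional DCHP libraries, Mir29c was highest in library 3 at 20.7 rpm from 46.3 reads, with the next at 8.34 rpm. In the same group, library 1 had a mismatched last base on 4.55% of miR-26b-5p reads, with the next at 3.17%.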

How the results depend on the processing

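No alternative called a member between exposures in either method or in the interaction. Between methods in control, 0 of 5 members were called, beside 49.9% of hairpins. The count was 4 (beside 77.3% of hairpins) with 20 to 24 nt reads on all hairpins as library size and 5 (75.8%) with all reads. It was 5 (96.5%) with TMM, 5 (83.7%) with DESeq2 and 1 (44.0%) without the filter on low counts. When 1 library was left out it ranged from 0 to 4, and the hairpins called from 150 of 338 to 188 of 342. In DCHP libraries the count rose from 0 of 7 (40.2%) to 5, 7, 5 and 4 with those 4 sizes, beside 76.3%, 78.7%, 90.2% and 80.9% of hairpins. The members thus rose with the hairpins at large. These counts include members that passed the filter through the traditional libraries alone, with at most 2.5 PANDORA-seq reads over a group, or nearly so (Mir26b, and Mir29a in control). The call of the miR-26a-5p start (1) became 0 at 50 reads, where the arm was not tested, and ranged from 0 to 2 when 1 library was left out.

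With the library number as a block, 3 members were called between methods in control, beside 53.4% of 343 hairpins. Of these only Mir26a-1 is read, because the others passed the filter through the traditional libraries, wholly or nearly so. Pairing by number was not settled in control, where 3 of 4 pairs had r over 0.1. In the traditional exposure comparison the block gave 0.0383 for Mir26a-1 and 0.18 for Mir29b-2. Between methods in DCHP libraries, where 5 of 5 pairs deviated together, the block changed no call of a member.

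Log2 fold changes of exposure turned as follows. In PANDORA-seq, Mir26a-1 was -0.0925 without Mir122 in the library size and -0.26 to 0.83 when 1 library was left out. In traditional libraries, those ranges were -0.19 to 0.22 for Mir26a-1, -0.75 to 0.0244 for Mir26b, -0.0341 to 0.998 for Mir29b-1 and -0.74 to 0.43 for Mir29b-2. Mir29b-1 was -0.45 with all reads, -0.59 with TMM, -0.46 with DESeq2, -0.23 without Mir122 in the size and -0.0023 with shared reads counted in full. Without traditional controls 1 and 2, chosen after the data were seen, as was the size without Mir122, the values were 0.47 for Mir26a-1, 0.69 for Mir26b, 0.82 for Mir29a, 1.33 for Mir29b-2 and 0.10 for Mir29c, and the interaction of Mir29a was -0.31. Between methods in control they were then 0.29 for Mir26b and 0.43 for Mir29a. In DCHP libraries Mir29a was -1.72 with 20 to 24 nt reads on all hairpins, -6.84 with all reads, -2.22 with TMM, -1.97 with DESeq2 and -0.0190 to 0.36 when 1 library was left out. The cause was not tested. With 5816 to 46900 miRNA reads, PANDORA-seq could not measure Mir29b-1, Mir29b-2 or Mir29c.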
